A study of Homo sapiens with 10 samples.

Results

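The genes described here are those by which a cell makes cholesterol and fatty acids, read in cultured human lung cancer cells given an estrogen with or without tamoxifen. They were chosen as a fixed list of 31 genes, with earlier results of these data known. It holds 4 regulators of the pathway, 18 enzymes of sterol synthesis, 1 sterol carrier and 8 enzymes of fatty acid synthesis. Of the 31 genes, 28 could be read from a probe set annotated to that gene alone, out of 19775 genes read in this way on the arrays. Each gene was represented by its brightest such probe set over the 10 arrays, and its other probe sets served as a check. CYP51A1 and FADS1 had only probe sets annotated to more than 1 gene, and these and FDFT1 were not analysed here. All 28 genes passed the filter on dim genes, which kept 12979 genes whose mean level was at or above the median probe set, an intensity of 19.7.

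Cholesterol is built from acetyl units through mevalonate, squalene and lanosterol, and its enzymes are switched on together by the transcription factor SREBP-2, the product of SREBF2. When sterols are plentiful in the endoplasmic reticulum, INSIG proteins hold the escort protein SCAP and the SREBP precursor there, and when sterols run low the complex travels to the Golgi apparatus, where the factor is cut free. SREBP-1, the product of SREBF1, acts mainly on the genes of fatty acid synthesis. Tamoxifen is best known as a ligand of estrogen receptors, and it also binds the microsomal antiestrogen binding site formed by the late sterol enzymes EBP and DHCR7.

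Expression was measured on 10 Affymetrix arrays of total RNA, with 5 treatments given to each of 2 lines of non-small cell lung cancer. The study asked which early effects of estrogen start at the plasma membrane, for which it coupled 17-β-estradiol to bovine serum albumin (estradiol-BSA), and it used tamoxifen as an inhibitor. A549 is an adenocarcinoma line and HTB-182 a squamous carcinoma line, which the series title calls H520. The 5 groups of each line were 1 µM estradiol with 10 µM tamoxifen, 1 µM estradiol, 1 µM estradiol-BSA with 10 µM tamoxifen, 1 µM estradiol-BSA, and ethanol vehicle (0.1%). Before that all cells were kept for 4 h with 10% charcoal-stripped serum, which also stayed in the medium during the exposure of 3 h. Stripping removes steroid hormones from serum, and it lowers other lipids too, in all groups alike. The source descriptions name no culture with tamoxifen alone or albumin alone, so the effect of tamoxifen was read only on top of an estrogen. The titles of the arrays with estradiol and tamoxifen name tamoxifen only, and their source descriptions, which name both compounds, were followed.

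Values are intensities on a linear scale, and differences are in units of log2(intensity + 16). A doubling of intensity is a difference close to 1 for a bright gene and a smaller difference for a dim one. Every treatment of a line was read on a single array. The p-values therefore rest on how far these arrays scatter, and that scatter can be technical or can come from lines that respond unequally. The median intensity of an array ran from 17.5 to 21.5, with the highest on the A549 vehicle array. That array stood apart from the rest of its line. On it 263 genes were 2-fold or more away from what the remaining A549 arrays averaged, 249 of them lower, against 23 to 35 genes on the other A549 arrays and 0 to 3 on the HTB-182 arrays. None of the 28 genes was among the 263, and 3 lay at least 1.5-fold away. Of the markers of squamous cells, the transcription factor SOX2 averaged 135 ± 59.6 in A549 and 4152 ± 229 in HTB-182 (SD, n = 5 arrays each), while the keratins KRT5 and KRT14 and the desmosomal genes DSG3 and PKP1 averaged 7.68 to 26.1 in A549 and 8.43 to 22.1 in HTB-182. The glandular keratin KRT7 averaged 3411 in A549 and 18.1 in HTB-182, and the lung lineage factor NKX2-1 was under the filter's intensity in both lines, at 17.0 in A549 and 17.9 in HTB-182. Of the other adenocarcinoma and alveolar markers, MUC1 averaged 98.8 in A549 and 25.4 in HTB-182, and NAPSA 31.2 and 22.3. SFTPB and SFTPC averaged higher in HTB-182, at 27.8 in A549 and 32.2 in HTB-182 for SFTPB and 41.6 and 48.0 for SFTPC. The 7 markers of blood, endothelial and stromal cells summed to 509 to 631 on the A549 arrays and to 87.6 to 97.2 on the HTB-182 arrays, mostly through COL1A1 in A549 (382 against 20.6 in HTB-182), while the leukocyte gene PTPRC was near the bottom of the scale, at 8.80 in A549 and 7.29 in HTB-182. The part of these markers in the line differences was not tested.

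The promoters of INSIG1, MSMO1, HMGCS1 and DHCR7, which have the largest mean tamoxifen differences among the 6 genes that read higher with tamoxifen in all pairs, are shown because the pathway's enzymes are known to be switched on together through such sequence. They are the 250 bases before the start site in RefSeq's table for GRCh38.p14, written 5′ to 3′ on the gene's strand, with capitals marking the CCAAT box or its reverse complement ATTGG. Their positions are chr7:155297628-155297877 on the plus strand for INSIG1, chr4:165327419-165327668 on the plus strand for MSMO1, chr5:43313413-43313662 on the minus strand for HMGCS1 and chr11:71448394-71448643 on the minus strand for DHCR7.
INSIG1: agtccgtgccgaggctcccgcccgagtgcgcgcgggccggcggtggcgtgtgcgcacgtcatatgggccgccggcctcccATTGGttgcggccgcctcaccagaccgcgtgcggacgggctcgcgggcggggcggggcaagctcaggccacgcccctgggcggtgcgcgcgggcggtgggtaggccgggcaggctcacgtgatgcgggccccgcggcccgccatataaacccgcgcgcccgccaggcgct
MSMO1: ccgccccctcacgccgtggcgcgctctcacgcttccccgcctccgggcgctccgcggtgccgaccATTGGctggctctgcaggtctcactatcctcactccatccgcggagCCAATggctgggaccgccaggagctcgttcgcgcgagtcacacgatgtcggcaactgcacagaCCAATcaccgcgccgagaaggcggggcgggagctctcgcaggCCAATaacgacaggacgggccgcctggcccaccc
HMGCS1: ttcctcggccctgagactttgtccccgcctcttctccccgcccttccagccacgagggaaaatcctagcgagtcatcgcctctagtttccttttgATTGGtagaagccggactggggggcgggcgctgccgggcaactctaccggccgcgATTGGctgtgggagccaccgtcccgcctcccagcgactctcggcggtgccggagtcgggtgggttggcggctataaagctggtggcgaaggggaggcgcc
DHCR7: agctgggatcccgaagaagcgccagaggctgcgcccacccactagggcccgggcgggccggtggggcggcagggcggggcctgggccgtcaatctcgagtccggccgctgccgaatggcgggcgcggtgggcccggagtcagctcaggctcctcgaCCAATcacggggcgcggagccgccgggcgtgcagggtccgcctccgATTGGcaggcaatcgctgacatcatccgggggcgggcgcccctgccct

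INSIG1 held 1 CCAAT box, 165 bases before the start, and MSMO1 held 4, at 180, 134, 71 and 29 bases. HMGCS1 held 2, at 150 and 95 bases, and DHCR7 held 2, at 89 and 43 bases. The DHCR7 stretch lies inside the gene's span of 71427287 to 71449043, so it precedes an internal start site. The other stretches shown border the span of their gene. The CCAAT box, the binding sequence of the factor NF-Y, was present on either strand in 18 of the 25 members whose promoter was in the table (72%), against 34.8% of 10492 tested genes and 32% of all 35116 promoters. The sterol regulatory element was searched as TCACNCCAC on both strands. Of the 25 members only SREBF2 held it (4%), against 0.829% of tested genes and 0.883% of all promoters, and none of the 4 sequences above did. The GC box GGGCGG was present in 23 of 25 members (92%) and in 65.7% of tested genes, and the E-box CACGTG in 3 of 25 members (12%) and in 8.81% of tested genes. These are matches of letters within 250 bases and say nothing of sites elsewhere or of binding.

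Tamoxifen was compared with the same estrogen form without it in 4 pairs of arrays, 2 in each line. Of the 28 genes, 6 had a higher reading with tamoxifen in 4 of 4 pairs, namely the sensor INSIG1, the sterol enzymes MSMO1, HMGCS1, DHCR7 and SC5D, and the fatty acid desaturase SCD. None read lower in 4 of 4. The 6 were 21.4% of the 28 genes, where 7.36% of all tested genes were higher in 4 of 4 pairs and 5.13% were lower. Because the list was chosen with earlier results of these data known, the 2 shares are no test of the pathway. No change passed the test, however. Of 12979 genes, 0 had an adjusted p under 0.05 with limma's additive model of line and treatment (0% called), and for each of the 28 genes the adjusted p was 0.9998. At an unadjusted p under 0.05 there were 151 genes, fewer than the 649 that chance gives, and among them were INSIG1 and MSMO1. An array of total RNA reads all cells of a culture together, so fewer cells expressing a gene and less RNA per cell cannot be told apart.

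INSIG1, which retains SCAP in the endoplasmic reticulum and is itself switched on by SREBP, had the largest difference of the 28 genes. In A549 its intensity was 742 with estradiol and tamoxifen against 451 with estradiol, and 594 with estradiol-BSA and tamoxifen against 430 with estradiol-BSA, while the vehicle array read 287. In HTB-182 it was 1147 with estradiol and tamoxifen against 968 with estradiol, and 1099 with estradiol-BSA and tamoxifen against 977 with estradiol-BSA, while the vehicle array read 856. Within each line, on this brightest probe set, both tamoxifen arrays stood above both estrogen arrays without it. The vehicle array was the lowest of the 5. The mean difference over the 4 pairs was 0.39 (SE 0.13, 95% interval 0.10 to 0.68, 1.31-fold, limma unadjusted p = 0.0133). By pair it was 0.70 with estradiol and 0.45 with estradiol-BSA in A549, and 0.24 with estradiol and 0.17 with estradiol-BSA in HTB-182. On this probe set both A549 pairs exceeded both HTB-182 pairs. The further probe sets did not repeat this with estradiol. There 201627_s_at gave 0.15 in A549 and 0.17 in HTB-182, and 201625_s_at gave -0.12 and 0.15. With estradiol-BSA, A549 stayed above HTB-182 on both. On the brightest probe set the difference between the lines in the tamoxifen effect was 0.51 (SE 0.20, limma unadjusted p = 0.0272, adjusted p = 0.971). The fit of this difference also uses the vehicle arrays. It did not pass, as for all 12979 genes (0% called, 260 at an unadjusted p under 0.05). Without the A549 array given estradiol and tamoxifen the mean difference was 0.25.

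MSMO1, the sterol methyl oxidase that takes methyl groups off the ring after lanosterol, differed by 0.15 to 0.41 in the 4 pairs. It read 1275 with estradiol and tamoxifen against 1026 with estradiol in A549, and 1070 with estradiol-BSA and tamoxifen against 962 with estradiol-BSA. In HTB-182 the readings were 1041 with estradiol and tamoxifen against 854 with estradiol, and 966 with estradiol-BSA and tamoxifen against 721 with estradiol-BSA. The vehicle arrays, at 903 in A549 and 776 in HTB-182, lay below both tamoxifen arrays of their line, and in neither line did the tamoxifen arrays overlap the estrogen arrays without it. The mean difference was 0.29 (SE 0.08, 95% interval 0.11 to 0.47, limma unadjusted p = 0.00428), a 1.22-fold difference, and MSMO1 has no other probe set against which to check it.

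HMGCS1, the cytosolic synthase that makes HMG-CoA for mevalonate, read 357 with estradiol and tamoxifen against 337 with estradiol in A549, and 386 with estradiol-BSA and tamoxifen against 332 with estradiol-BSA. In HTB-182 it read 543 with estradiol and tamoxifen against 470 with estradiol, and 527 with estradiol-BSA and tamoxifen against 474 with estradiol-BSA. The vehicle arrays read 243 in A549 and 467 in HTB-182, the lowest in each line. The mean difference was 0.16 (SE 0.11), and its 95% interval of -0.08 to 0.40 includes 0.

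DHCR7, which carries out the last step to cholesterol in 1 branch of the pathway, differed by 0.34 with estradiol-BSA in A549 and by 0.04 to 0.16 in the other 3 pairs, with a mean of 0.15 (SE 0.11). The mean was 0.06 without the A549 array given estradiol-BSA and 0.25 without the HTB-182 array given estradiol-BSA. Its intensities in A549 were 343 with estradiol and tamoxifen against 333 with estradiol, and 347 with estradiol-BSA and tamoxifen against 271 with estradiol-BSA. In HTB-182 they were 530 with estradiol and tamoxifen against 474 with estradiol, and 581 with estradiol-BSA and tamoxifen against 549.3 with estradiol-BSA. Unlike INSIG1, it was not lowest in vehicle, which read 384 in A549 and 560 in HTB-182. SCD, the stearoyl-CoA desaturase, differed by 0.02 to 0.13 by pair, and SC5D, a desaturase of the late sterol ring steps, by 0.04 to 0.15. The mean differences were 0.09 (SE 0.06) for SCD and 0.08 (SE 0.09) for SC5D. With 1 array left out at a time they ran from 0.05 to 0.12 for SCD and from 0.02 to 0.15 for SC5D.

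**Figure D1:**
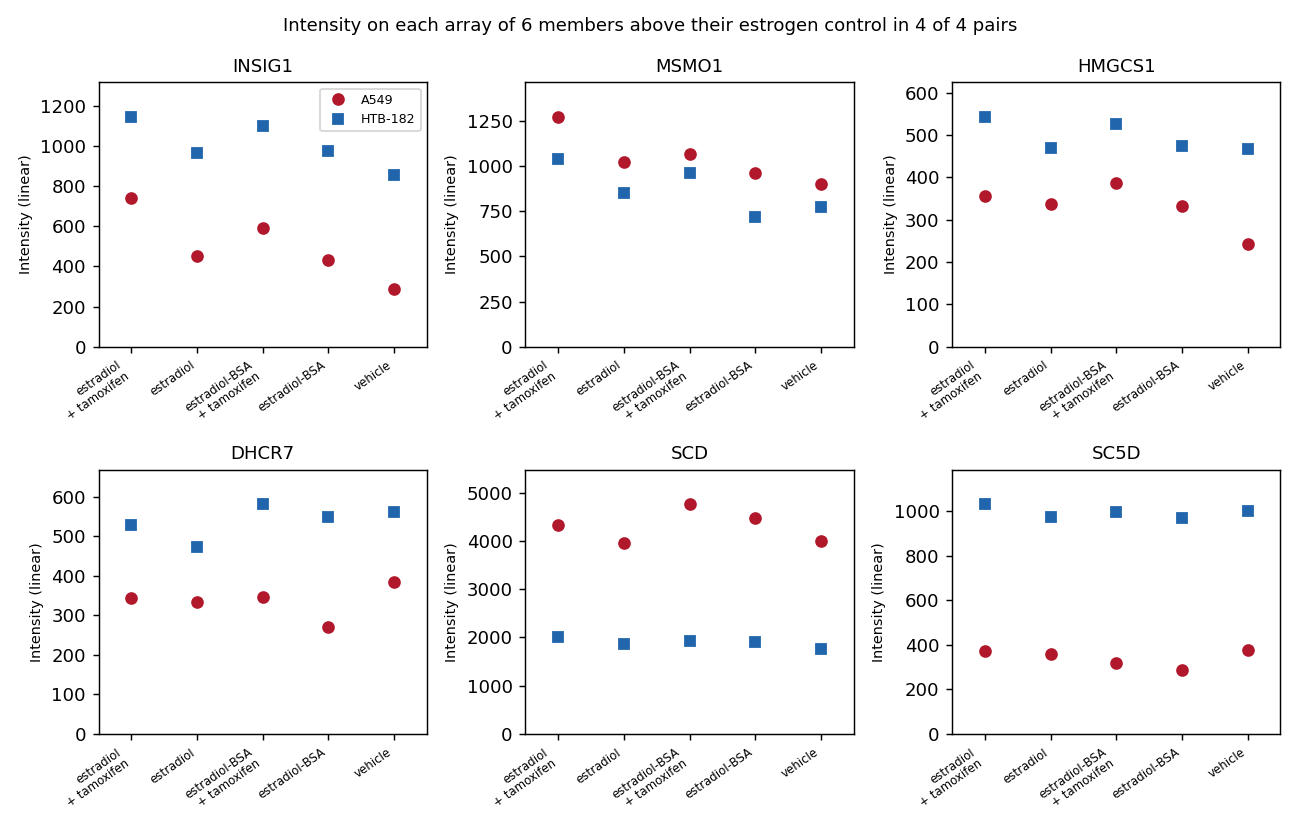
Intensity (linear, arbitrary units) on each of the 10 arrays for the 6 genes that read higher with tamoxifen in 4 of 4 pairs, with treatments along the horizontal axis, circles for A549 and squares for HTB-182; each point is 1 array. INSIG1 stands at 742 and 594 on the A549 tamoxifen arrays, against 451 and 430 on the estrogen arrays without it and 287 on vehicle, while the differences of SCD and SC5D are small beside the gap between the lines.

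Over all 28 genes the mean tamoxifen difference was above 0 for 19, and its median was 0.05, where 50.1% of all tested genes were above 0 and the median was 0.00. The differences ran from -0.16 for SREBF1 to 0.39 for INSIG1, and the 95% interval of a single gene extended about 0.25 to either side in the median. In A549, 14 of 28 genes were above 0 with estradiol (42% of all genes) and 17 of 28 with estradiol-BSA (51.4%). In HTB-182, 23 of 28 were above 0 with estradiol (60.9% of all genes) and 20 of 28 with estradiol-BSA (55.5%). In A549 the median over the 28 genes was 0.02 with estradiol (-0.05 over all genes) and 0.05 with estradiol-BSA (0.00 over all genes). In HTB-182 it was 0.11 with estradiol (0.03 over all genes) and 0.04 with estradiol-BSA (0.02 over all genes). The pair of A549 arrays given estradiol was the most dispersed, with a median absolute difference over all genes of 0.183, against 0.0824 to 0.0924 in the other pairs.

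Among the regulators, SREBF1 had the lowest value on its brightest probe set. In A549 it read 441 with estradiol and tamoxifen against 632 with estradiol, and 410 with estradiol-BSA and tamoxifen against 448 with estradiol-BSA, with 494 on the vehicle array. In HTB-182 it read 137 with estradiol and tamoxifen against 141 with estradiol, and 126 with estradiol-BSA and tamoxifen against 124 with estradiol-BSA, with 119 on vehicle. Both A549 tamoxifen arrays were below both estrogen arrays without it, whereas the HTB-182 arrays overlapped. The mean difference of -0.16 (SE 0.12) did not pass, and the dim second probe set, 1558875_at, gave 0.08, so the sign of SREBF1 depends on the probe set. SREBF2 differed by 0.11 (SE 0.11) and was higher in 3 of 4 pairs, with -0.11 and 0.05 on its further probe sets, and SCAP differed by 0.01 (SE 0.13), lower in both A549 pairs and higher in both HTB-182 pairs.

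Of the 7 mevalonate genes, 3 had a tamoxifen difference above 0 in the A549 pair given estradiol (42% of all genes did). In the A549 pair given estradiol-BSA 4 did (51.4% of all genes). In HTB-182, 7 were above 0 with estradiol (60.9% of all genes) and 6 with estradiol-BSA (55.5%). None passed the test. The mean differences of the 6 enzymes other than HMGCS1 lay between -0.07 for the kinase PMVK and 0.08 for the isomerase IDI1. Both PMVK and the decarboxylase MVD were lower with tamoxifen in both A549 pairs and higher in both HTB-182 pairs. The thiolase ACAT2 and the kinase MVK were higher in 3 of 4 pairs, and so was FDPS, the farnesyl diphosphate synthase, whose mean of -0.05 includes a value of -0.44 in the A549 pair given estradiol. MVD was dim, at 15.8 to 24.3 on the 10 arrays, so its fold changes are understated most. Opposite signs in the lines, alike in both pairs of each line, occurred in 4 of the 28 genes, which were SCAP, PMVK, MVD and ACSS2, and in 11.1% of all tested genes.

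Past squalene, the epoxidase SQLE differed by 0.09 (SE 0.09) and the cyclase LSS by 0.06 (SE 0.10), each higher in 3 of 4 pairs. EBP, the sterol isomerase of the antiestrogen binding site, differed by -0.11 (SE 0.15) and was lower in 3 of 4 pairs. Its partner at that site, DHCR7, was higher in 4 of 4 on its brightest probe set. On 201790_s_at, however, DHCR7 gave -0.04 and was higher in 1 of 4. TM7SF2, a sterol reductase, differed by -0.12 (SE 0.17) and was higher in the HTB-182 pair given estradiol-BSA only. NSDHL and HSD17B7, which complete the demethylation begun by MSMO1, were each higher in 3 of 4 pairs with means of 0.08 and 0.06. The carrier STARD4, which moves cholesterol between membranes, differed by 0.02.

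In fatty acid synthesis, ACLY, which releases acetyl-CoA from citrate, had the largest value, 0.11 (SE 0.07), of which the A549 pair given estradiol gave 0.37 and the other pairs 0.06, 0.01 and -0.00. Its further probe sets gave -0.14 (210337_s_at) and -0.08 (201127_s_at). ACACA, the carboxylase that makes malonyl-CoA, and FASN, the fatty acid synthase that uses it, were each higher in 2 of 4 pairs with means of -0.04 and -0.08. The elongase ELOVL6 was higher in 3 of 4 pairs and the desaturase FADS2 in 1 of 4, with means of 0.05 and 0.02. ACSS2, which makes acetyl-CoA from acetate, differed by -0.05. Of the 7 measured fatty acid genes 4 had a mean above 0, with a median of 0.02, and of the 16 measured sterol enzymes 11 did, with a median of 0.06. The difference between these groups was not tested.

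**Figure D2:**
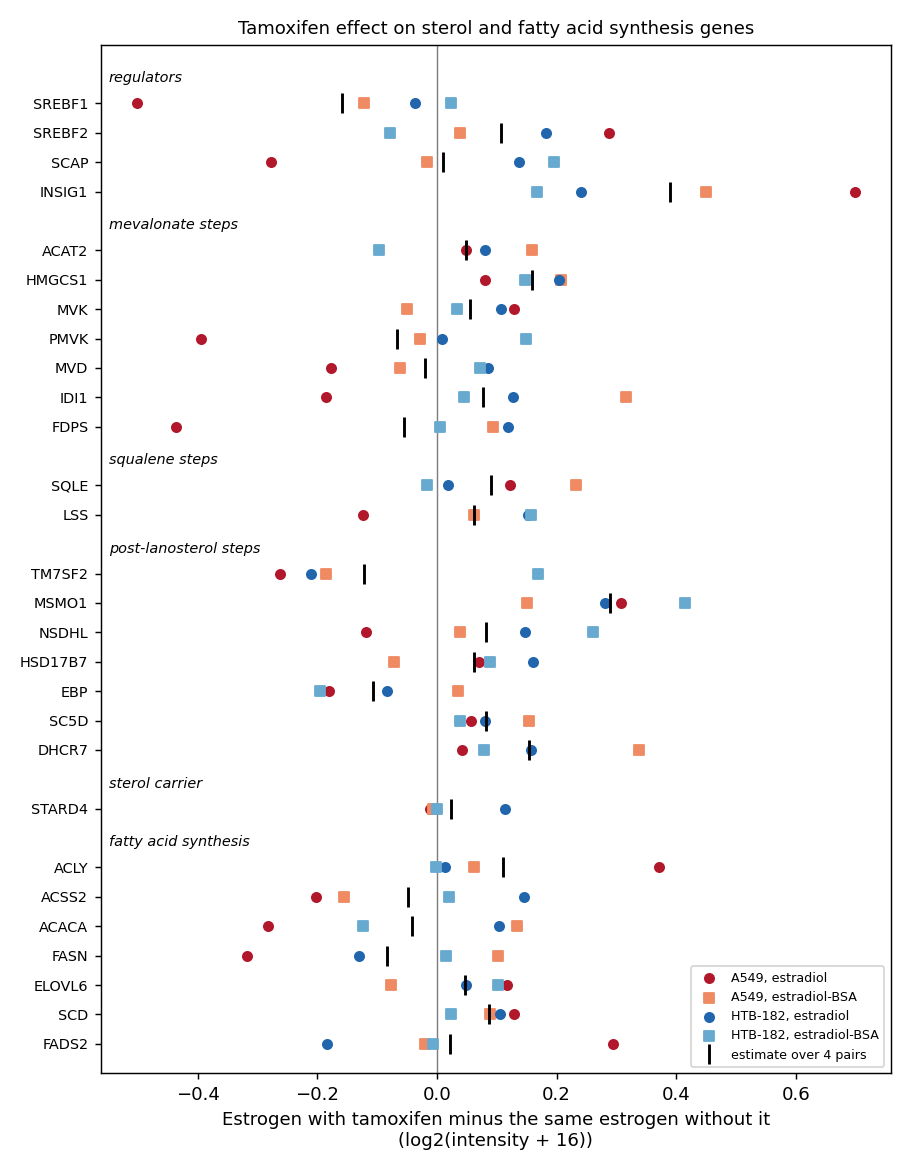
Tamoxifen effect on the 28 measured genes, ordered by role: the horizontal axis gives estrogen with tamoxifen minus the same estrogen without it in log2(intensity + 16), each coloured point is 1 pair of arrays and each black tick the limma estimate over the 4 pairs. INSIG1 and MSMO1 lie to the right of 0 in all 4 pairs with means of 0.39 and 0.29, and for most other genes the pairs fall on both sides of 0.

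The 2 estrogen forms were also set against each other. The tamoxifen effect on estradiol-BSA minus that on estradiol passed for 0 of 12979 genes with limma (0% called, 116 at an unadjusted p under 0.05), and no member had an unadjusted p under 0.05. For a typical gene the 95% interval of this difference extended 0.506 to either side, so differences smaller than that were not detectable here.

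Other probe sets of the same genes mostly did not repeat the pattern of the brightest. Of the 28 genes 15 had further probe sets above the filter, and in 14 of these the sign of the mean tamoxifen difference turned on at least 1 of them, over 19 of 27 further probe sets. INSIG1 was the gene that kept its sign on all. For INSIG1, the probe set 201627_s_at gave a mean tamoxifen difference of 0.23, higher in 3 of 4 pairs, and 201625_s_at gave 0.04, higher in 2 of 4, against 0.39 and 4 of 4 for 201626_at. The second HMGCS1 probe set, 205822_s_at, gave -0.04 and the second DHCR7 probe set, 201790_s_at, also -0.04, each higher in 1 of 4 pairs. For SCD, the 3 further probe sets gave -0.24 (200831_s_at), -0.19 (211708_s_at) and -0.09 (211162_x_at), so the sign of SCD depends on the probe set. Lower readings in 4 of 4 pairs came from 213577_at for SQLE (-0.19), 243953_at for FADS2 (-0.22) and the dim 233014_at for IDI1 (-0.22), while the brightest probe sets of these genes gave 0.09, 0.02 and 0.08. SC5D has 1 further probe set, which was under the filter. Of the 6 genes higher in 4 of 4 pairs, MSMO1 and SC5D had no further probe set above the filter to compare.

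**Figure D3:**
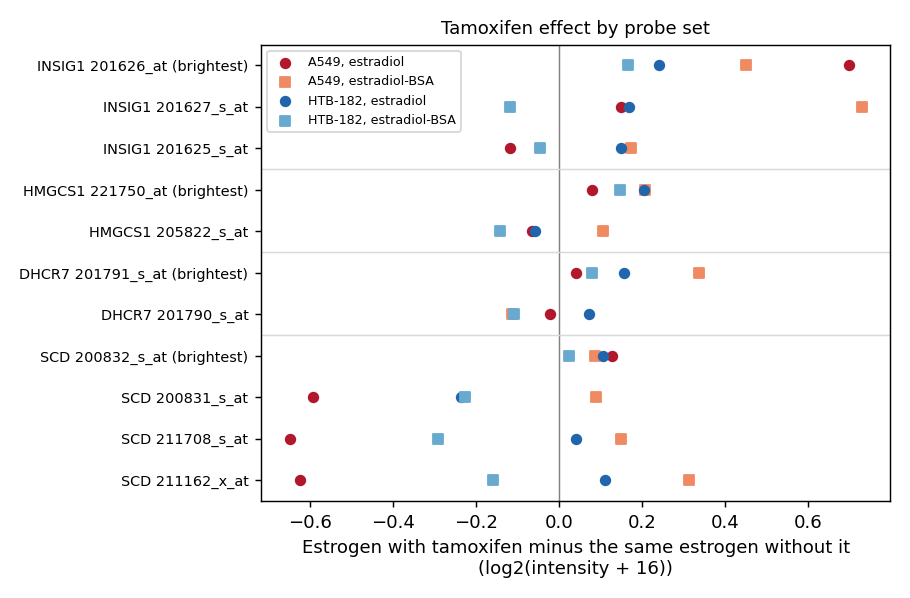
Tamoxifen effect by probe set for the 4 genes that read higher in 4 of 4 pairs and have further probe sets above the filter; the horizontal axis gives estrogen with tamoxifen minus the same estrogen without it in log2(intensity + 16), and each point is 1 pair of arrays. The brightest probe set of each gene lies to the right of 0 in all 4 pairs, and the further ones spread over both sides, with means of 0.23 and 0.04 for INSIG1 and -0.24 to -0.09 for SCD.

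Against the vehicle, 5 of the 28 genes were higher on all 4 tamoxifen arrays, namely INSIG1, HMGCS1, MSMO1, LSS and SCD, where 11.6% of all tested genes were. SREBF2, ACSS2 and FASN were lower on all 4, where 14% of all genes were. On the 4 estrogen arrays without tamoxifen, INSIG1, HMGCS1 and ACAT2 were higher than vehicle on all 4 (6.9% of all genes) and 8 of the 28 were lower (15.5%). Both comparisons use the same vehicle arrays, 1 per line, and are not independent of each other. These counts use the brightest probe sets, and for HMGCS1 and SCD further ones did not repeat them. On 205822_s_at for HMGCS1 the tamoxifen arrays read 96.1 and 82.7 against 95.7 on vehicle in A549. In HTB-182 they read 142 and 120 against 145. On 200831_s_at for SCD they read 582 and 699 against 694 in A549, and 244 and 278 against 304 in HTB-182.

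INSIG1 exceeded vehicle by 1.32 with estradiol and tamoxifen and by 1.01 with estradiol-BSA and tamoxifen in A549, against 0.62 with estradiol and 0.56 with estradiol-BSA. In HTB-182 the excess was 0.42 with estradiol and tamoxifen and 0.35 with estradiol-BSA and tamoxifen, against 0.17 with estradiol and 0.19 with estradiol-BSA. On the brightest probe set all 8 values were above 0, and in each line the tamoxifen arrays were the farther ones from vehicle. The mean over lines and forms was 0.78 with tamoxifen (SE 0.16, 1.71-fold, limma adjusted p = 0.555) and 0.39 without it (SE 0.16, limma adjusted p = 0.72), and neither passed. The further INSIG1 probe sets did not fully repeat this. On 201627_s_at the A549 array given estradiol-BSA read 205, below vehicle at 295, and all other treated arrays read above their vehicle. On 201625_s_at the A549 arrays given estradiol-BSA read 79.5 without tamoxifen and 91.6 with it, below vehicle at 122. In HTB-182 the same treatments read 192 and 185, below vehicle at 222. The arrays given estradiol were at or above vehicle there. HMGCS1 with tamoxifen exceeded vehicle by 0.53 and 0.63 in A549 and by 0.21 and 0.17 in HTB-182, with a mean of 0.38 (SE 0.13). MSMO1 with tamoxifen exceeded it by 0.49 and 0.24 in A549 and by 0.42 and 0.31 in HTB-182, with a mean of 0.36 (SE 0.10), against 0.08 (SE 0.10) without tamoxifen. TM7SF2 differed from vehicle by -0.47 (SE 0.21) and ACSS2 by -0.37 (SE 0.14) with tamoxifen. Without tamoxifen they differed by -0.35 (SE 0.21) and -0.32 (SE 0.14). For TM7SF2 the values with tamoxifen were -0.77 and -1.05 in A549, and -0.23 and 0.17 in HTB-182.

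No gene of 12979 passed against vehicle, with tamoxifen (0% called, 1158 at an unadjusted p under 0.05) or without it (0% called, 829), by limma's additive model. At an unadjusted p under 0.05 stood 6 members with tamoxifen and 2 without. The member median was -0.06 with tamoxifen and -0.09 without, against -0.06 and -0.07 for all genes. The count of 0 with tamoxifen depended on the vehicle array of HTB-182. With that array left out, the comparison rested on the A549 vehicle array alone, which stood apart as described, and 2708 genes passed (20.9%). The 28 genes held 6 of these (21.4%), a share near that of all genes: INSIG1 at 1.07 (adjusted p = 0.000355), HMGCS1 at 0.59 (adjusted p = 0.0135), MSMO1 at 0.40 (adjusted p = 0.0372), PMVK, TM7SF2 and EBP. In the same way 2106 genes then passed without tamoxifen (16.2%), of which 4 were among the 28 (14.3%), namely INSIG1, PMVK, TM7SF2 and EBP. With the A549 vehicle array left out instead, no member passed, and the differences from vehicle with tamoxifen were 0.48 for INSIG1, 0.18 for HMGCS1 and 0.33 for MSMO1. For EBP the A549 vehicle array was the highest of its line on the brightest probe set, at 595. It was the lowest on 202735_at, at 117 against 335 to 393 on the other A549 arrays. The part of the A549 vehicle array in these values was not tested beyond this. The mean tamoxifen differences given before do not use the vehicle arrays. Their SEs, intervals and p-values do, because the scatter was taken from all 10 arrays. The fitted difference between the lines in the tamoxifen effect uses the vehicle arrays as well.

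The lines themselves differed far more than the treatments did. Over 5 pairs of arrays given the same treatment, 19 of the 28 genes differed between A549 and HTB-182 (67.9%) at a limma adjusted p under 0.05, close to the 65.7% of all tested genes. Of the 28, 7 were higher in A549 (33.6% of all genes were) and 12 were lower (32% of all genes were). The 5 arrays of a line carry different treatments, so the SDs below include the treatment differences.

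The fatty acid side held most of the genes higher in A549. SREBF1 averaged 485 ± 87.2 in A549, from 410 to 632, and 129 ± 9.39 in HTB-182, from 119 to 141 (SD, n = 5 arrays each), a difference of 1.77 (SE 0.10, limma adjusted p = 5.23e-08). Its dim second probe set differed by 0.28. SCD averaged 4301 ± 338 in A549 and 1893 ± 90.1 in HTB-182, a difference of 1.17 (SE 0.05, limma adjusted p = 5.19e-09), and its 3 further probe sets gave 0.70 to 1.23. For both genes the lines did not overlap on any array. ACLY differed by 0.40, ACSS2 by 0.38 and FADS2 by 0.32, whereas FASN and ACACA were lower in A549, with differences of -0.40 and -0.26. Of the 7 measured fatty acid genes 6 passed (85.7%, against 65.7% of all genes), 4 of them higher in A549 (57.1%, against 33.6%) and 2 lower (28.6%, against 32%).

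Most sterol enzymes that differed were lower in A549. Of the 16 measured, 9 passed (56.2%, against 65.7% of all genes). Of these, 8 were lower (50% of the 16, against 32% of all genes) and 1 was higher, MSMO1 at 0.26 (SE 0.07). ACAT2, the thiolase that joins acetyl units at the entry to the pathway, averaged 296 ± 17.2 in A549, from 284 to 326, and 1408 ± 55.9 in HTB-182, from 1353 to 1482, a difference of -2.19 (SE 0.08, limma adjusted p = 7.89e-10). It was the largest line difference of the 28 genes, and the lines were far from overlapping. SC5D averaged 343 ± 39.2 in A549 and 994 ± 24.9 in HTB-182, a difference of -1.50 (SE 0.08). FDPS averaged 791 ± 117 in A549 and 1369 ± 99.5 in HTB-182, a difference of -0.79 (SE 0.10). HSD17B7 averaged 280 ± 36.5 in A549 and 489 ± 25.4 in HTB-182, a difference of -0.77 (SE 0.09). LSS differed by -0.70, DHCR7 by -0.66, HMGCS1 by -0.57 and EBP by -0.36. The further probe sets of DHCR7 and HMGCS1 gave -0.54 and -0.54. For EBP they gave -0.92, -0.03 and -0.04. The x in the names of the HSD17B7 and IDI1 probe sets is the manufacturer's mark for probes that can also match other transcripts, so these readings may be shared.

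Among the regulators and the sterol carrier, SREBF1 was higher in A549, and INSIG1 and STARD4 were lower. INSIG1 averaged 501 ± 173 in A549 and 1009 ± 115 in HTB-182, a difference of -1.05 (SE 0.12, limma adjusted p = 1.12e-05), and its further probe sets gave -0.77 and -0.84. STARD4 averaged 202 ± 34.5 in A549 and 427 ± 21.9 in HTB-182, a difference of -1.04 (SE 0.11). SREBF2 differed by 0.30 (SE 0.10, limma adjusted p = 0.0246) on its brightest probe set, but by -0.00 and -0.29 on the other 2, so its direction depends on the probe set. SCAP differed by 0.27 and did not pass (limma adjusted p = 0.0627). The lines did not overlap over the 10 arrays for 14 of the 28 genes (50%), against 58.5% of all tested genes.

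**Figure D4:**
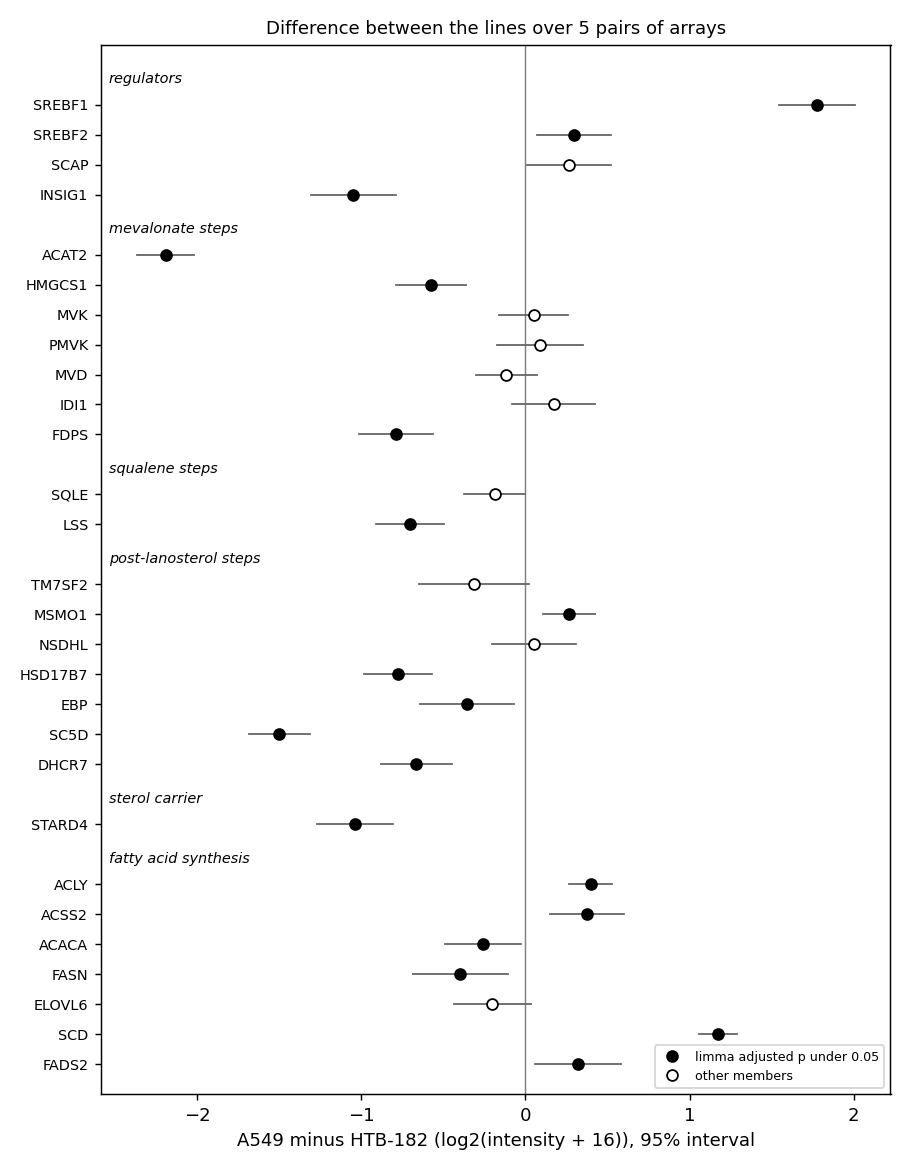
Difference between the lines for the 28 measured genes, ordered by role: the horizontal axis gives A549 minus HTB-182 in log2(intensity + 16), over 5 pairs of arrays, with limma's 95% interval as a line and filled points for an adjusted p under 0.05. ACAT2 at -2.19 and SC5D at -1.50 are the farthest to the left, and SREBF1 at 1.77 and SCD at 1.17 the farthest to the right.

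Further genes of sterol and fatty acid metabolism that are no members of the list were counted as a background of the pathway, and 36 of 44 could be read. Of these 0 passed for tamoxifen, 4 were higher in 4 of 4 pairs and 2 were lower in 4 of 4 (7.36% and 5.13% of all genes). The higher ones were RDH11 (0.13), STARD3 (0.06), THRSP (0.10) and ELOVL5 (0.04), and the lower ones were MYLIP and HACD3 (-0.05). Over their further probe sets, dim ones included, the median turned sign for RDH11 (-0.03) and ELOVL5 (-0.03). It kept its sign for THRSP (0.03), MYLIP (-0.16) and HACD3 (-0.09), and STARD3 has 1 probe set. The median tamoxifen difference of the 36 genes was 0.00.

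MYLIP, a ubiquitin ligase that removes lipoprotein receptors from the cell surface and is switched on by the sterol-sensing LXR factors, read 152 with estradiol and tamoxifen against 214 with estradiol in A549, and 133 with estradiol-BSA and tamoxifen against 186 with estradiol-BSA. In HTB-182 it read 296 with estradiol and tamoxifen against 329 with estradiol, and 310 with estradiol-BSA and tamoxifen against 364 with estradiol-BSA. Within each line both tamoxifen arrays were below both estrogen arrays without it, and the mean difference was -0.31 (SE 0.13, limma unadjusted p = 0.0307, adjusted p = 0.9998). The 2 further LXR targets of sterol efflux, ABCA1 and ABCG1, differed by -0.11 and 0.11. In HTB-182 they averaged 6.22 and 10.3, under the filter's intensity of 19.7, so their HTB-182 pairs say little.

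Between the lines, 28 of the 36 genes passed (77.8%, against 65.7% of all genes). Of the 36, 17 were higher in A549 (47.2%, against 33.6% of all genes) and 11 were lower (30.6%, against 32%). MBTPS2, the protease that frees SREBP from its membrane anchor, differed by 0.94, and the desaturase SCD5 by 1.41. LBR, which shares the sterol reductase step with TM7SF2, differed by -1.10. ABCA1 averaged 102 ± 20.2 in A549 and 6.22 ± 1.26 in HTB-182, where it lay under the filter's intensity, a difference of 2.40. ABCA1 and ABCG1 (51.6 in A549 and 10.3 in HTB-182) passed the filter only through A549. Both are counted among the 28.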

How the data were processed

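Total RNA of 2 cell lines under 5 treatments was read on 10 arrays. The authors deposited linear intensities in 1 table, made with MAS5 per the submitters' processing notes. The version and the scaling of MAS5 were not stated there. Of 54675 probe sets, 62 controls were left out, 41091 name 1 gene and were used, 1801 name several and 11721 none here. Gene numbers of 41037 matched RefSeq, with 0 changes of symbol. Each gene took its brightest probe set, and genes at or above the median were tested as log2(intensity + 16). The small number of arrays limits the precision.

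Differences were fitted over all 12979 genes with limma 3.58.1 in R 4.3.3 (additive line and treatment model, 4 residual degrees of freedom, 3 with a line by tamoxifen term, intensity trend, Benjamini-Hochberg adjustment at 0.05), after tests on simulated data. The cell line pairs the arrays and is a block in every model. The members and lists were chosen with earlier results of these data known. Genes named with values were all members, the further genes of the pathway with 4 of 4 pairs alike, and further genes singled out after their values were seen. Alternatives were pseudocounts of 1 and 64, no filter, quantile normalization, no trend, other probe sets and leaving out each array.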

Additional observations from a re-analysis of the deposited data

Results flagged for a closer look

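In 1 of 56 tests, 1 for each of the 28 genes in each line, a single array lay far from the other 4 of its line. The phosphomevalonate kinase PMVK read 246 on the HTB-182 array given estradiol-BSA, against 267 to 274 on the other 4, and the gap to the nearest was 0.745 of the whole range. Chance alone gives about 1 in 20 such cases, or 2.8 of 56.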

How the results depend on the processing

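With a pseudocount of 1 or 64, no filter, quantile normalization or no intensity trend (50 summary values), the counts stayed within 1.5 times those reported and the members' median tamoxifen difference ran from 0.042 to 0.075. Without the line as a block (no replicate block), the genes passing for tamoxifen stayed at 0. That fit counts the line differences as scatter, so its 0 adds no support. Leaving out 1 array at a time, the genes passing ran from 0 to 2708 for estrogen with tamoxifen against vehicle, from 0 to 2106 for estrogen without it against vehicle (the highest values in the fits without the HTB-182 vehicle array, and 1 gene without the A549 vehicle array), and from 0 to 4 for the tamoxifen effect in A549 minus HTB-182. The members higher in every tamoxifen pair numbered 6 to 10, with 3 pairs left in the fits that gave 9 or 10. The median tamoxifen difference over all 28 genes ran from 0.0056 (without the A549 array given estradiol-BSA) to 0.0741. Members differing between the lines numbered 15 to 20, with calls of SREBF2, EBP, ACACA, FASN and FADS2 lost in some of these fits, and ACACA also without the filter and without the trend. On further probe sets above the filter the tamoxifen sign turned in 14 of 15 genes. Among the genes higher in 4 of 4 pairs these were HMGCS1 (-0.039), DHCR7 (-0.042) and SCD (-0.24, -0.19 and -0.089). Between the lines, among the 19 genes that passed, the sign turned for SREBF2 (-0.0045 and -0.29) and ACACA (0.011). The cause was not tested. Single arrays per combination and readings near background, as for MVD, limit what can be seen.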
